A study of Mus musculus with 4 samples.

Results

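Wnt antagonists and feedback targets are genes by which cells limit their own response to Wnt proteins. Wnt ligands bind Frizzled receptors at the cell surface and stabilize β-catenin, which enters the nucleus and activates target genes together with Tcf/Lef factors. Antagonists act on this pathway outside or inside the cell, and many of them are Wnt targets themselves, so that a cell with active signaling makes its own inhibitors. In the early embryo Wnt signaling is needed for the primitive streak and mesoderm, and secreted antagonists are made on the opposite, anterior side. The 10 genes described here were *Dkk1*, *Sfrp1*, *Sfrp2*, *Sfrp5*, *Frzb*, *Axin2*, *Sp5*, *Nkd1*, *Notum* and *Lef1*. They were taken by name, as the probe sets with exactly 1 gene symbol equal to one of these names, which gave 101 probe sets of 209279 with 1 symbol and 10 genes of 16358.

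Embryoid bodies (EBs) are floating aggregates in which ES cells differentiate once LIF and 2i are withdrawn. RNA was measured on Affymetrix mouse exon arrays in 4 samples, *Mst-/-* (Mst1/Mst2 knockout) and wild type EBs at day 8 and *Mst-/-* and wild type EBs at day 4. With 1 array per genotype and day no difference can be set against a spread between cultures, and no test was possible. The ES cells had been kept with LIF and 2i, of which CHIR99021 inhibits Gsk3 and thereby activates β-catenin signaling, and the EB medium had neither. The *Mst-/-* ES cells lack exons of the kinase domains of Mst1 and Mst2 and came from blastocysts of C57BL/6 crosses. The sources used here do not say which of the study's *Mst-/-* lines was put on the arrays, and a difference between ES cell lines cannot be told apart from the deletion. The array titled as *Mst-/-* EBs of day 8 carries day 4 in 1 of its labels, and the title and cell type were followed.

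The signal of a gene is the median over its probe sets on the log2 scale, and the SD over probe sets is given beside differences. This spread lies within the same arrays and can hold differences between parts of a gene, as for *Stk4* below. It is neither an error of the median nor a spread between cultures. As background served the 95th percentile over 1005 genes of olfactory and vomeronasal receptors, and it lay between 6.92 and 7.04 on the 4 arrays. The differences of the receptor genes had an SD between 0.41 and 0.46 in the 4 comparisons, which is the precision at low signal. A gene was compared when it exceeded background on either array of a comparison, and differences past 1.5-fold, the threshold of the study, were counted. The deletion was visible in *Stk4*, the gene of Mst1, where 2 of 13 probe sets had signals between 3.83 and 4.80 in *Mst-/-* EBs and between 11.42 and 12.03 in wild type EBs. The Mst2 gene *Stk3* was not analysed here. In these aggregates fewer cells of a type and less RNA per cell cannot be told apart.

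By measured signals, 5 of the 10 genes exceeded 1.5-fold upward in *Mst-/-* EBs relative to wild type EBs at day 8, as 8.43% of all 12160 compared genes did, and 2 exceeded it downward, against 8.19%. With signals below background set to background, 4 genes were past 1.5-fold upward, against 7.59% of all genes, since *Notum* was then 1.09-fold higher. The higher genes by measured signals were *Dkk1*, *Frzb*, *Notum*, *Sp5* and *Lef1*, and the lower ones *Sfrp1* and *Sfrp2*. At day 4, 6 of the 10 were over 1.5-fold lower in *Mst-/-* EBs, against 8.51% of 11937 genes, and 1 was over 1.5-fold higher, against 10.3%. The lower genes of day 4 were *Dkk1*, *Frzb*, *Sfrp1*, *Axin2*, *Nkd1* and *Lef1*, and the higher one was *Notum*. The median difference over the 10 genes was 0.56 at day 8 and -0.83 at day 4, beside 0.05 at day 8 and 0.02 at day 4 over all genes above background. The 10 genes were chosen with earlier results of these data known. Their counts and medians beside all genes, here and below, are therefore descriptions and not a measure of enrichment.

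*Dkk1*, *Frzb* and *Lef1* were over 1.5-fold higher at day 8 and over 1.5-fold lower at day 4 in *Mst-/-* EBs. Of 11584 genes compared on both days, 59 had this pattern, which is 0.509%, and the reverse was seen in 0.639%, with none of the 10 genes. All 3 are called on both days by the threshold alone, since the difference between the days could not be tested.

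**Figure D1:**
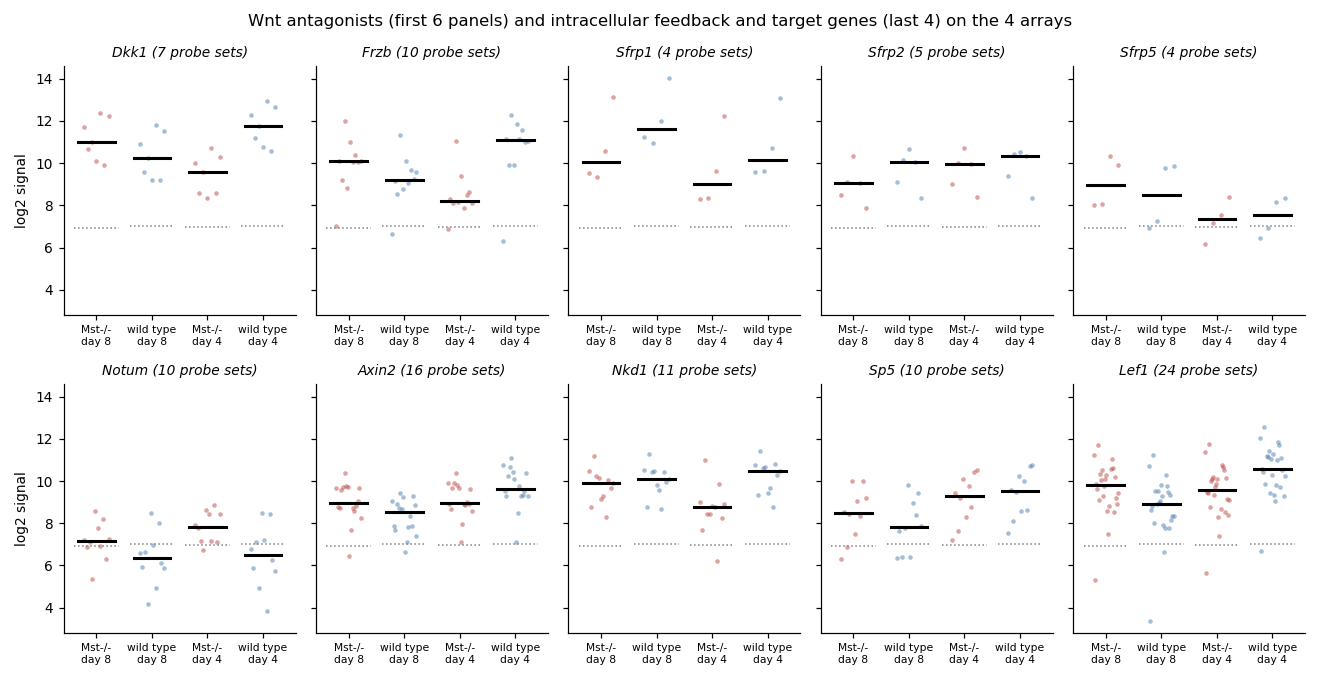
Log2 signal of each gene on the 4 arrays, with a point for each probe set, a bar for the median over probe sets and a dotted line for the background of the array; *Mst-/-* arrays are red and wild type arrays blue. *Dkk1*, *Frzb*, *Nkd1*, *Sfrp1* and *Sfrp5* had their lowest median on the *Mst-/-* array of day 4, and *Notum* was the only gene of the 10 with medians below background, on both wild type arrays.

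*Dkk1* encodes a secreted protein that binds the coreceptors Lrp5 and Lrp6 and keeps them from the Wnt receptor complex. Its signal was 10.98 in *Mst-/-* EBs and 10.25 in wild type EBs at day 8, and 9.60 in *Mst-/-* EBs and 11.75 in wild type EBs at day 4. At day 8 it was 1.66-fold higher in *Mst-/-* EBs, and the log2 difference was 0.73 ± 0.16 (SD over its 7 probe sets). At day 4 it was 4.44-fold lower, with -2.15 ± 0.21. Each of the 7 probe sets was higher at day 8 and lower at day 4, and the brightest gave 0.57 at day 8, just within 1.5-fold. The wild type array of day 4 was the highest of the 4 and the *Mst-/-* array of day 4 the lowest.

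*Frzb* encodes a secreted Frizzled-related protein that binds Wnt ligands. Its signal was 10.08 in *Mst-/-* EBs and 9.20 in wild type EBs at day 8, and 8.22 in *Mst-/-* EBs and 11.10 in wild type EBs at day 4. At day 8 it was 1.85-fold higher in *Mst-/-* EBs, with 0.89 ± 0.29 (SD over 10 probe sets), and at day 4 it was 7.39-fold lower, with -2.89 ± 1.16. The order of the 4 arrays was the same as for *Dkk1*. At day 4, 9 of the 10 probe sets were lower, and the exception was a dim one with 6.90 in *Mst-/-* EBs and 6.30 in wild type EBs. The difference of *Frzb* at day 4 was the largest of the 10 genes on either day, while its brightest probe set gave -1.27.

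The sequences before the start sites of *Dkk1* and *Frzb* are shown because the signals of both genes put the 4 arrays in the same order. They are the 250 bases before the start in RefSeq GRCm38.p6, written 5′ to 3′ on the strand of the gene, for *Dkk1* (chr19:30549497-30549746, minus strand) and *Frzb* (chr2:80447397-80447646, minus strand). Capitals mark a match to CTTTGAT or CTTTGTT, forms of the Tcf/Lef recognition sequence with 7 bases, searched on both strands.
Dkk1: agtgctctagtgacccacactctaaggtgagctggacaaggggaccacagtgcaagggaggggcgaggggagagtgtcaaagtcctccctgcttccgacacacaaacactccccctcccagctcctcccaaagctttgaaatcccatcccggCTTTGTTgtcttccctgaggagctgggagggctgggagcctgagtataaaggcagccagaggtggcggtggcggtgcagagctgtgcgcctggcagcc
Frzb: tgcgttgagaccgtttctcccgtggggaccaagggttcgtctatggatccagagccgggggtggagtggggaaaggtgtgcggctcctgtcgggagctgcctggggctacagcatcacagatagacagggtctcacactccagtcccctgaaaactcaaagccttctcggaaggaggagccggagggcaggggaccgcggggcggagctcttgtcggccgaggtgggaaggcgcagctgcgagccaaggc
The window of *Dkk1* held 1 match, whose first base lay 98 bases before the start, and that of *Frzb* held none. Either form was found in 8.06% of 32851 windows of this length in the RefSeq table, CTTTGAT in 3.21% and CTTTGTT in 5.03%. A match is a description of letters and not a measured binding site.

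*Sfrp1*, *Sfrp2* and *Sfrp5* are relatives of *Frzb* and encode secreted proteins with a Frizzled-like domain that binds Wnt ligands. *Sfrp1* had a signal of 10.05 in *Mst-/-* EBs and 11.62 in wild type EBs at day 8, and of 8.995 in *Mst-/-* EBs and 10.17 in wild type EBs at day 4. It was lower in *Mst-/-* EBs on both days, 2.97-fold at day 8 (-1.57 ± 0.35, SD over 4 probe sets) and 2.26-fold at day 4 (-1.18 ± 0.21), and each of the 4 probe sets was lower on both days. *Sfrp1* was the only one of the 10 genes that was over 1.5-fold lower on both days.

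*Sfrp2* had a signal of 9.08 in *Mst-/-* EBs and 10.05 in wild type EBs at day 8, a difference of -0.97 ± 0.30 (SD over 5 probe sets, 1.96-fold lower), with all 5 probe sets lower. At day 4 it had 9.94 in *Mst-/-* EBs and 10.36 in wild type EBs, a difference of -0.42 ± 0.28 within 1.5-fold, where 3 probe sets were lower and 2 higher. The *Mst-/-* array of day 8 was the lowest of the 4. With the brightest probe set alone the difference of day 8 was -0.32, within 1.5-fold.

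*Sfrp5* was within 1.5-fold on both days. Its signal was 8.98 in *Mst-/-* EBs and 8.51 in wild type EBs at day 8 (0.47 ± 0.45, SD over 4 probe sets), and 7.36 in *Mst-/-* EBs and 7.54 in wild type EBs at day 4 (-0.18 ± 0.36). The mean over probe sets gave 0.63 at day 8, past 1.5-fold. The arrays of day 8 were both above those of day 4. The 4 Frizzled-related genes thus did not share a direction: *Frzb* had opposite signs on the 2 days, *Sfrp1* was lower in *Mst-/-* EBs on both, and *Sfrp2* was past the threshold at day 8.

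*Notum* encodes a secreted enzyme that removes the lipid from Wnt proteins and so inactivates them. Its signal was 7.15 in *Mst-/-* EBs and 6.34 in wild type EBs at day 8, and 7.85 in *Mst-/-* EBs and 6.51 in wild type EBs at day 4. Both wild type arrays were below background, so the differences are bounds, with *Mst-/-* EBs higher by at least 1.09-fold at day 8 and by at least 1.75-fold at day 4. The measured differences were 0.81 ± 0.61 at day 8 and 1.34 ± 1.08 at day 4 (SD over 10 probe sets), and the call of day 8 rests on a wild type signal below background. Each of the 10 probe sets was higher in *Mst-/-* EBs on both days, by between 0.06 and 1.98 at day 8 and between 0.02 and 3.33 at day 4. Both upper ends came from the same probe set, with wild type signals below background, 4.92 at day 8 and 3.83 at day 4. The brightest probe set gave 0.06 at day 8 and 0.14 at day 4.

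*Axin2* encodes a scaffold of the complex that degrades β-catenin and is widely used as a reporter of β-catenin signaling. Its signal was 8.95 in *Mst-/-* EBs and 8.52 in wild type EBs at day 8, and 8.96 in *Mst-/-* EBs and 9.64 in wild type EBs at day 4. The difference was 0.43 ± 0.40 at day 8 (SD over 16 probe sets), within 1.5-fold, with 14 probe sets higher, and -0.68 ± 0.21 at day 4, 1.60-fold lower, with all 16 probe sets lower. The call of day 8 depends on the summary, since the mean over probe sets gave 0.66 and the brightest probe set 0.95, both past 1.5-fold upward. Both *Mst-/-* arrays lay between the wild type arrays.

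*Nkd1* encodes a protein that binds Dishevelled and dampens Wnt signaling inside the cell. Its signal was 9.90 in *Mst-/-* EBs and 10.12 in wild type EBs at day 8, and 8.76 in *Mst-/-* EBs and 10.46 in wild type EBs at day 4. It was within 1.5-fold at day 8, with -0.22 ± 0.17 (SD over 11 probe sets), and 3.25-fold lower in *Mst-/-* EBs at day 4, with -1.70 ± 0.71 and all 11 probe sets lower. The *Mst-/-* array of day 4 was below the other 3. The brightest *Nkd1* probe set gave -0.43 at day 4, within 1.5-fold.

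*Lef1* encodes a DNA-binding partner of β-catenin and is also a Wnt target. Its signal was 9.82 in *Mst-/-* EBs and 8.93 in wild type EBs at day 8, and 9.58 in *Mst-/-* EBs and 10.56 in wild type EBs at day 4. At day 8 it was 1.85-fold higher in *Mst-/-* EBs, with 0.89 ± 0.38 (SD over 24 probe sets), and at day 4 it was 1.97-fold lower, with -0.98 ± 0.35. Each of the 24 probe sets was higher at day 8, by between 0.27 and 1.97, and each was lower at day 4, with differences between -1.65 and -0.12. The value of 1.97 came from a probe set below background on every array, and the next highest was 1.26. The brightest gave 0.48 at day 8, within 1.5-fold. As for *Axin2*, both *Mst-/-* arrays lay between the wild type arrays.

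*Sp5* encodes a zinc finger factor that is switched on by β-catenin signaling in the primitive streak and limits the activity of other Wnt targets. Its signal was 8.50 in *Mst-/-* EBs and 7.84 in wild type EBs at day 8, and 9.30 in *Mst-/-* EBs and 9.53 in wild type EBs at day 4. It was 1.58-fold higher at day 8, with 0.66 ± 0.47 (SD over 10 probe sets) and 8 probe sets higher, and within 1.5-fold at day 4, with -0.23 ± 0.15. The call of day 8 was lost when probe sets were averaged, with 0.53, and with the brightest probe set, with 0.54.

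The window before the start of *Sp5* is shown because it held the most matches among the 8 genes with a sequence. It lies at chr2:70474673-70474922, plus strand, in RefSeq GRCm38.p6, with the capitals as for *Dkk1*.
Sp5: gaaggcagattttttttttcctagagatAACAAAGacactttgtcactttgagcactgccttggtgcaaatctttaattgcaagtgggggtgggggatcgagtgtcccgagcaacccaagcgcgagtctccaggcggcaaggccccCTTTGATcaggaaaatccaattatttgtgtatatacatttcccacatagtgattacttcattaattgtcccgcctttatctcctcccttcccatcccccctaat
It held 2 matches, CTTTGAT with its first base 104 bases before the start, and AACAAAG, which is CTTTGTT on the other strand, 222 bases before it. Of the 10 genes, 8 were in the RefSeq table with 11 start sites in all, of which 4 belong to *Lef1*, and 2 of the 11 windows held a match. *Sfrp1* and *Notum* had no window there and were not searched. The windows of *Axin2*, *Nkd1* and *Lef1* held none, which says only that these letters are not in the 250 bases before those starts.

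**Figure D2:**
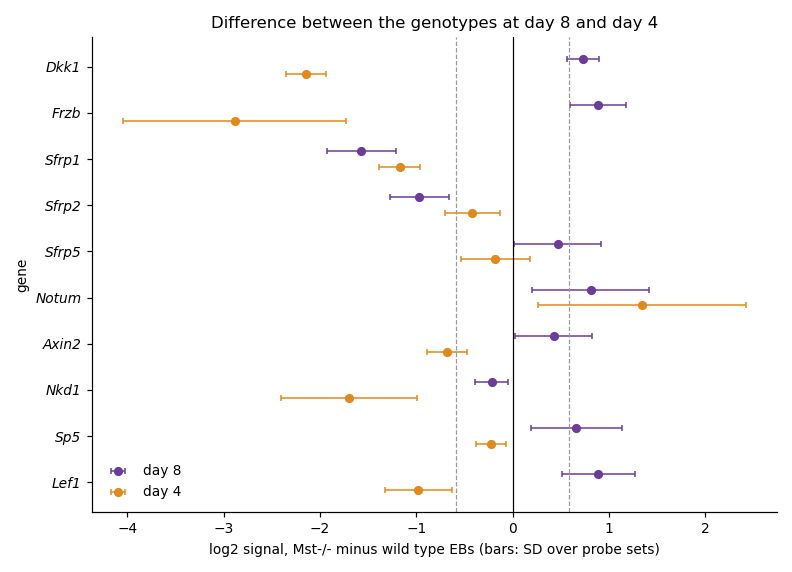
Log2 difference between *Mst-/-* and wild type EBs for each gene at day 8 (purple) and day 4 (orange), with bars for the SD over probe sets and dashed lines at 1.5-fold. *Dkk1*, *Frzb* and *Lef1* were past the dashed lines on opposite sides on the 2 days, while *Sfrp1* was lower and *Notum* higher in *Mst-/-* EBs on both, with both wild type signals of *Notum* below background.

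The course over time was compared within each genotype, on the same 4 arrays as above, so that these values are not independent of those between the genotypes. In *Mst-/-* EBs, 5 of the 10 genes were over 1.5-fold higher at day 8 than at day 4, where 13.3% of 12133 genes were, and 3 were over 1.5-fold lower, against 7.48%. In wild type EBs, 2 of 9 genes were over 1.5-fold higher at day 8, against 16.7% of 12077 genes, and 5 were over 1.5-fold lower, against 12.7%. *Notum* was not compared there, since it was below background on both wild type arrays. The median difference between the days was 0.65 in *Mst-/-* EBs and -1.12 in wild type EBs, beside -0.01 in *Mst-/-* EBs and -0.02 in wild type EBs over all genes compared.

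*Dkk1* and *Frzb* had opposite courses in the 2 genotypes. *Dkk1* was 2.60-fold higher at day 8 than at day 4 in *Mst-/-* EBs (1.38 ± 0.28, SD over 7 probe sets) and 2.83-fold lower in wild type EBs (-1.50 ± 0.19). *Frzb* was 3.64-fold higher at day 8 in *Mst-/-* EBs (1.87 ± 0.66, 10 probe sets) and 3.75-fold lower in wild type EBs (-1.91 ± 0.71). Of 11697 genes compared in both courses, 64 were over 1.5-fold higher at day 8 in *Mst-/-* EBs and over 1.5-fold lower in wild type EBs, 0.547%, and *Dkk1* and *Frzb* were among them.

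*Axin2* and *Lef1* were within 1.5-fold between the days in *Mst-/-* EBs and past it in wild type EBs. *Axin2* had a difference of -0.02 ± 0.19 in *Mst-/-* EBs and of -1.12 ± 0.51 in wild type EBs (SD over 16 probe sets). *Lef1* had 0.24 ± 0.20 in *Mst-/-* EBs and -1.64 ± 0.65 in wild type EBs (24 probe sets). *Sp5* was lower at day 8 in both genotypes, by 1.75-fold in *Mst-/-* EBs (-0.81 ± 0.32, 10 probe sets) and by 3.23-fold in wild type EBs (-1.69 ± 0.79). *Nkd1* was 2.204-fold higher at day 8 in *Mst-/-* EBs (1.14 ± 0.68, 11 probe sets) and within 1.5-fold in wild type EBs (-0.34 ± 0.23).

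*Sfrp1* and *Sfrp5* were higher at day 8 in both genotypes, with all 4 probe sets of each gene higher. *Sfrp1* was 2.08-fold higher in *Mst-/-* EBs (1.06 ± 0.16, SD over 4 probe sets) and 2.73-fold higher in wild type EBs (1.45 ± 0.27). *Sfrp5* was 3.07-fold higher in *Mst-/-* EBs (1.62 ± 0.80, 4 probe sets) and 1.97-fold higher in wild type EBs (0.98 ± 0.70). The opposite direction was seen for *Sfrp2*, which was 1.82-fold lower at day 8 in *Mst-/-* EBs (-0.86 ± 0.23, 5 probe sets) and within 1.5-fold in wild type EBs (-0.31 ± 0.20). *Notum* was 1.62-fold lower at day 8 in *Mst-/-* EBs (-0.70 ± 0.43, 10 probe sets). In *Mst-/-* EBs 4 of these courses came within 1.5-fold with the brightest probe set, -0.34 for *Sfrp2*, -0.07 for *Notum*, -0.44 for *Sp5* and 0.17 for *Nkd1*.

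**Figure D3:**
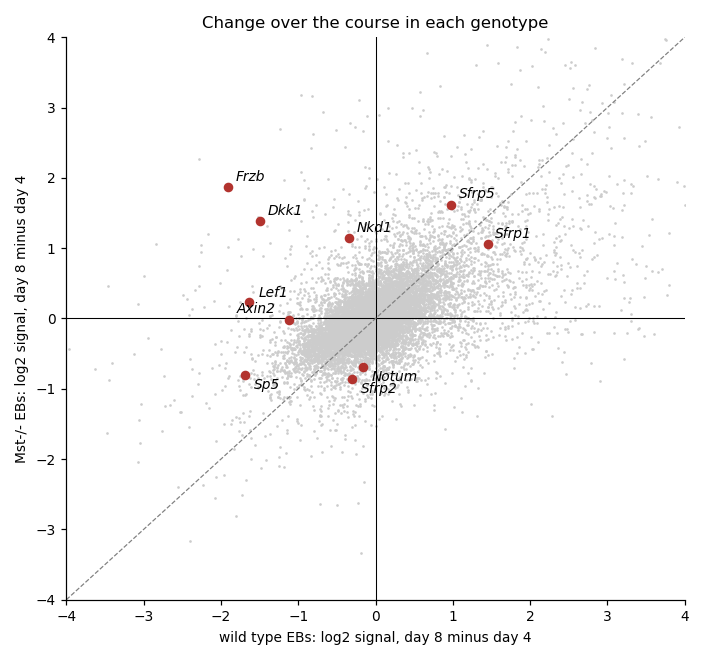
Log2 difference of day 8 minus day 4 for the 10 genes (red) and the 12513 genes above background on at least 1 array (grey), in wild type EBs on the x axis and in *Mst-/-* EBs on the y axis, with a dashed line where both are equal; 47 of the 12513 genes lie outside the plotted range of 4 in either direction. *Frzb* and *Dkk1* stand at the upper left, *Axin2* and *Lef1* near 0 for *Mst-/-* EBs, and *Sfrp1* and *Sfrp5* at the upper right.

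The genotype difference of day 8 minus that of day 4 puts the comparisons together. It was past 1.5-fold upward in 7 of the 10 genes, against 10.1% of 12513 genes, and downward in none, against 11.5%, again for genes chosen with earlier results known. The genes with the highest values were *Frzb* with 3.77 ± 1.34 (SD over 10 probe sets), *Dkk1* with 2.88 ± 0.35 (7 probe sets) and *Lef1* with 1.87 ± 0.65 (24 probe sets). *Nkd1* had 1.48 ± 0.75, *Axin2* 1.11 ± 0.55, *Sp5* 0.89 ± 0.54 and *Sfrp5* 0.65 ± 0.62. *Sfrp1*, *Notum* and *Sfrp2* lay below 0, with -0.40 ± 0.15, -0.53 ± 0.55 and -0.55 ± 0.12. The receptor genes had an SD of 0.57 in this measure and 27.3% of them were past 1.5-fold.

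Other Wnt inhibitors were split in direction on both days. At day 8, 13 could be compared, of which 6 were past 1.5-fold upward in *Mst-/-* EBs by measured signals and 2 downward (median 0.03). Of the 6, *Sfrp4*, *Wif1* and *Apcdd1* were below background in wild type EBs and within 1.5-fold with that signal at background, which left 3. At day 4, 11 could be compared, of which 2 were past it upward and 5 downward (median -0.32), and 3 of the 5 stayed past it with *Mst-/-* signals at background, without *Dkk3* and *Apcdd1*. *Cer1*, a secreted antagonist of Nodal, BMP and Wnt proteins from anterior endoderm, had a signal of 9.93 in *Mst-/-* EBs and 7.68 in wild type EBs at day 8 (2.25 ± 0.45, SD over 4 probe sets), and of 10.37 in *Mst-/-* EBs and 11.65 in wild type EBs at day 4 (-1.29 ± 0.15). It was past the threshold in opposite directions on the 2 days, as *Dkk1* was. *Dkk2*, a relative of *Dkk1*, had 7.43 in *Mst-/-* EBs and 9.50 in wild type EBs at day 8, 4.20-fold lower (-2.07 ± 0.63, 7 probe sets), and was below background on both arrays of day 4. *Dkkl1*, a Dickkopf-like gene, had a 2.03-fold higher signal in *Mst-/-* EBs at day 8 and one higher by at least 3.19-fold at day 4, where the wild type array was below background. *Sfrp4*, a further Frizzled-related gene, had bounds of 1.07-fold higher at day 8 and 1.76-fold higher at day 4, with both wild type arrays below background as for *Notum*. Its probe sets were split at day 8, with 4 of 7 higher and 3 lower (0.67 ± 0.68). At day 4, 6 were higher and 1 lower (0.98 ± 0.92).

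Other Wnt target genes were lower or within 1.5-fold in *Mst-/-* EBs at day 4. At day 8, 13 could be compared, of which 2 were past 1.5-fold upward and none downward (median 0.17). At day 4, 14 could be compared, of which none was past it upward and 8 downward (median -0.67). *Lgr5*, a receptor of R-spondins, had 9.51 in *Mst-/-* EBs and 8.99 in wild type EBs at day 8 (0.52 ± 0.22, SD over 22 probe sets), within 1.5-fold, and 8.62 in *Mst-/-* EBs and 10.45 in wild type EBs at day 4 (-1.84 ± 0.47, 3.57-fold lower). *Bambi*, a pseudoreceptor that limits BMP and TGF-β signaling, was within 1.5-fold at day 8 and 2.37-fold lower at day 4 (-1.25 ± 0.11, 6 probe sets). *Tbx6*, a factor of the paraxial mesoderm, was within 1.5-fold at day 8 and 3.36-fold lower at day 4 (-1.75 ± 1.12, 12 probe sets).

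Among 14 Wnt ligand genes compared for day 8, 3 were past 1.5-fold upward in *Mst-/-* EBs and 1 downward (median -0.03), and among 15 for day 4, 2 were past it upward and 4 downward (median 0.06). The study compared Wnt ligands on these arrays, so their direction is not independent evidence. Its text reports *Wnt2*, *Wnt2b* and *Wnt5a* as lower in *Mst-/-* EBs and names no day for this. At day 8, *Wnt2* alone of these was past 1.5-fold downward here. *Wnt3*, a ligand needed for the primitive streak, was 2.204-fold higher at day 8 (1.14 ± 0.49, SD over 6 probe sets) and 1.71-fold lower at day 4 (-0.78 ± 0.33). *Wnt5a*, a ligand of non-canonical signaling, was 1.63-fold higher at day 8 and at least 8.78-fold lower at day 4, where the *Mst-/-* array was below background. These ligands thus had the signs of *Dkk1*, *Frzb* and *Lef1* on both days. *Wnt2* was lower on both days, 4.23-fold at day 8 and 2.89-fold at day 4, as *Sfrp1* was, and *Wnt2b* had a difference of 0.02 at day 8 and of -2.05 at day 4.

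Among 18 receptor and R-spondin genes compared for day 8, 2 were past 1.5-fold upward in *Mst-/-* EBs and 3 downward (median -0.10), and among 17 for day 4, none was past it upward and 3 downward (median -0.22). *Rspo3*, a secreted amplifier of Wnt signaling, was within 1.5-fold at day 8 (0.18 ± 0.20, SD over 8 probe sets) and 6.68-fold lower at day 4 (-2.74 ± 0.65). *Rspo2*, its relative, was at least 1.79-fold lower at day 8. Among the Frizzled receptors *Fzd10* had a difference of 1.21 at day 8 and 0.17 at day 4, and *Fzd1* of -0.60 at day 8 and -1.12 at day 4.

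The list of cytoplasmic and nuclear components also holds *Porcn* and *Wls*, which act on the Wnt proteins themselves. Of its 17 compared genes, 1 (*Porcn*) was over 1.5-fold higher and 1 (*Bcl9*) lower in *Mst-/-* EBs at day 8. At day 4 none was higher and 4 were lower, with *Wls* among them. *Ctnnb1*, the gene of β-catenin, had 13.17 in *Mst-/-* EBs and 13.12 in wild type EBs at day 8, and 13.04 in *Mst-/-* EBs and 13.14 in wild type EBs at day 4. *Axin1*, the paralog of *Axin2*, was within 1.5-fold on both days. *Wls*, which carries Wnt proteins to the cell surface, was within 1.5-fold at day 8 and 3.25-fold lower at day 4 (-1.70 ± 0.54, SD over 17 probe sets). *Tcf7l2*, a relative of *Lef1*, was within it at day 8 and 1.82-fold lower at day 4 (-0.86 ± 0.50, 21 probe sets). *Bcl9*, a coactivator of β-catenin, had -0.61 at day 8 and -0.81 at day 4, and *Porcn*, which attaches the lipid to Wnt proteins, had 0.80 at day 8 and 0.27 at day 4.

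**Figure D4:**
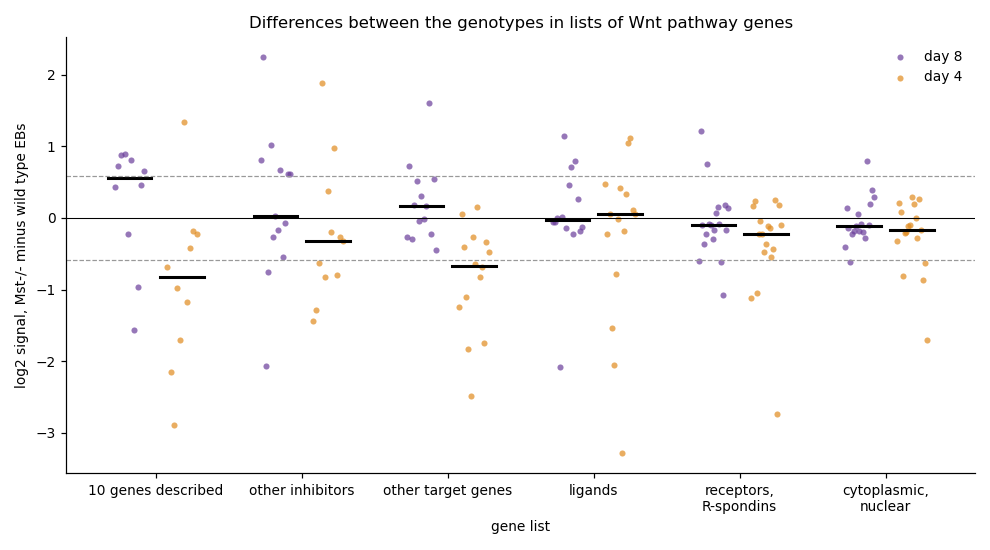
Log2 difference between *Mst-/-* and wild type EBs at day 8 (purple) and day 4 (orange) for the 10 genes and 5 lists of other Wnt pathway genes, with a point for each compared gene, a bar for the list median and dashed lines at 1.5-fold. The bars of the 10 genes lie at 0.56 for day 8 and -0.83 for day 4. Those of other target genes lie at 0.17 for day 8 and -0.67 for day 4, and those of other inhibitors at 0.03 and -0.32. The bars of the lists of ligands, receptors and cytoplasmic or nuclear components lie between -0.22 and 0.06.

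Markers of the cell types that EBs hold also differed between the arrays, and their part in the results was not tested. The primitive streak and early mesoderm markers had a median signal of 9.31 in *Mst-/-* EBs and 7.67 in wild type EBs at day 8, and of 9.79 in *Mst-/-* EBs and 10.15 in wild type EBs at day 4. At day 8, 5 of 9 compared were past 1.5-fold upward in *Mst-/-* EBs and none downward, and at day 4 none of 10 was past it upward and 7 downward, the directions of *Dkk1*, *Frzb* and *Lef1*. *T*, the defining gene of the streak and a Wnt target, had a 3.03-fold higher signal in *Mst-/-* EBs at day 8 and a 1.61-fold lower one at day 4. Between the days, 7 of the 10 streak markers in *Mst-/-* EBs and all 10 in wild type EBs were over 1.5-fold lower at day 8, 6 in *Mst-/-* EBs with signals below background set to it. The course of *Dkk1* and *Frzb* in *Mst-/-* EBs was the opposite, higher at day 8, and *Lef1* was within 1.5-fold there. Of 9 endoderm markers, which include *Cer1*, 3 were higher and 2 lower in *Mst-/-* EBs at day 8, and of 8 at day 4, none was higher and 5 were lower. Between the days, 7 of 9 endoderm markers were over 1.5-fold higher at day 8 and none lower in *Mst-/-* EBs, while 4 were higher and 3 lower in wild type EBs. *Sox17*, a factor of definitive endoderm, had the signs of *Dkk1* and *Frzb* in both genotypes, with a difference of day 8 minus day 4 of 2.08 ± 0.90 in *Mst-/-* EBs and -0.96 ± 0.58 in wild type EBs (SD over 11 probe sets). It was the only one of the 9 endoderm markers past 1.5-fold in both of these directions. *Cer1* and *Foxa2*, the others lower in wild type EBs, had -0.44 and -0.33 in *Mst-/-* EBs. *Gata6*, *Afp*, *Ttr* and *Apoa1* were higher at day 8 in both genotypes, and *Hhex* and *Gata4* in *Mst-/-* EBs alone.

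Fibroblast and mesenchyme markers were lower in *Mst-/-* EBs at day 8, as *Sfrp1*, *Sfrp2* and *Dkk2* were by their medians. Their median signal was 9.29 in *Mst-/-* EBs and 12.39 in wild type EBs at day 8, where 7 of 8 were lower in *Mst-/-* EBs by over 1.5-fold and none was below background. At day 4 it was 7.44 in *Mst-/-* EBs and 7.66 in wild type EBs, where 1 of 6 was higher by measured signals and 1 lower, while *Sfrp1* was lower on that day too. Between the days, 7 of 8 of these markers were over 1.5-fold higher at day 8 in both genotypes, as *Sfrp1* and *Sfrp5* were. *Sfrp2* did not share this course, with -0.86 in *Mst-/-* EBs and -0.31 in wild type EBs. Cardiac markers of *Mst-/-* EBs were over 1.5-fold lower in 4 of 6 at day 8 and in 4 of 4 above background at day 4, and blood and endothelium markers in 6 of 7 at day 8 and in 3 of 6 at day 4, where 2 were higher. Pluripotency markers were over 1.5-fold higher in *Mst-/-* EBs in 5 of 6 at day 8 and in 4 of 6 at day 4, and *Notum* was higher on both days by its measured values, with the bound of day 8 at 1.09-fold. Neural progenitor markers were higher in 1 of 4 at day 8 and in 2 of 3 at day 4.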

How the data were processed

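Affymetrix mouse exon arrays were hybridized with RNA of *Mst-/-* and wild type EBs, 1 for each genotype at day 8 and at day 4. The authors deposited a log2 signal for each probe set. As software, the submitters' processing notes list the Affymetrix Expression Console (no version), and the study's methods list Partek and Genespring with a 1.5-fold threshold. How the signals were normalized was not given in the sources used here. Once sorted, the arrays differed by at most 0.17 at any rank, and they were not scaled again. With 1 array each, the number of arrays limits the precision.

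Of 229581 probe sets, 4446 had several symbols and 15856 none, and these were left out. Of the array symbols, 14190 were current in RefSeq GRCm38.p6, 2145 matched a synonym, and 45 with no match kept the array's name. A gene was compared when at least 1 of both arrays had it above background. Where the other array was below, a bound was computed with that array at its background. Besides the 10 genes, *Stk4* and *Ctnnb1* and *Axin1* were named, with up to 4 genes of each Wnt list that had the largest genotype difference on either day, at least 3 probe sets and 75% of them in the same direction, the defining markers of a cell type, and for each of the 10 genes the gene with the closest mean-centred signals by Euclidean distance. The genes and lists were chosen with earlier results of these data known. The computation was tested on simulated arrays. Alternatives changed the scaling, the summary over probe sets, the background and the threshold 1 at a time. Tools were Python 3.11.15, numpy 2.4.6, pandas 2.3.3 and, for plots, matplotlib 3.10.9.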

Additional observations from a re-analysis of the deposited data

Results flagged for a closer look

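In 3 of the 10 genes the difference between *Mst-/-* and wild type EBs was past 1.5-fold in opposite directions on the 2 days. *Dkk1* had 0.73 at day 8 and -2.15 at day 4. *Frzb* had 0.89 at day 8 and -2.89 at day 4. *Lef1* had 0.89 at day 8 and -0.98 at day 4. With 1 array per genotype and day the difference between the days was not tested.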

How the results depend on the processing

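Each alternative was computed for the counts and medians over the 10 genes. Of 99 such values, 88 stayed within 1.5 times the count or within the spread, 11 moved and 0 reversed. Of 269 values of single genes, 242 stayed within 1 SD over probe sets, 27 moved and 0 of the called values changed sign.

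The brightest probe set in place of the median moved most. It gave 2 genes higher in *Mst-/-* EBs at day 8 in place of 5, 1 lower at day 8 in place of 2, 0 higher at day 4 in place of 1, and 0 lower at day 8 than at day 4 in *Mst-/-* EBs in place of 3, with median differences between the days of 0.085 in *Mst-/-* EBs and -0.565 in wild type EBs. With the brightest probe set the median genotype difference was 0.27 at day 8 in place of 0.56, and -0.56 at day 4 in place of -0.83. The median of the genotype difference of day 8 minus that of day 4 was 0.57 in place of 0.995. These medians were smaller in size but stayed within the spread. A 2-fold threshold gave 0 higher and 1 lower at day 8, 0 lower at day 8 than at day 4 in *Mst-/-* EBs, and 1 higher in wild type EBs in place of 2. The 99th percentile of the receptor genes as background gave 0 higher at day 4. A 2-fold threshold and a higher background make fewer calls by construction, and for the brightest probe set the cause was not tested. The shares of all genes under these settings are not given here, so these counts cannot be set beside them.

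The calls lost with the brightest probe set included *Dkk1* with 0.57 and *Lef1* with 0.48 at day 8, while *Axin2* was gained with 0.95, so that of the 5 genes higher at day 8 *Frzb* alone stayed, with 0.65. The mean over probe sets gained *Axin2* with 0.66 and *Sfrp5* with 0.63 at day 8. Centring or quantile normalization of the arrays lost none of the genotype calls. No paired analysis was possible because each genotype and day has 1 array with no replicate number, and for the same reason no array could be left out.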

Other observations

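For each gene the one with the most similar course over the 4 arrays was found, by the Euclidean distance of mean-centred log2 signals over 12120 other genes above background on at least 1 array, with at least 3 probe sets and without the olfactory and vomeronasal receptor genes. With 4 points many genes come close by shape alone, and the number with a Pearson correlation over 0.95 is given as a description. The gene closest to *Axin2* was *Tes*, at a distance of 0.06, and 346 genes had a correlation over 0.95. The gene closest to *Notum* was *Avpi1*, at 0.11, with 584 such genes. *Frzb* had its closest gene, *Fgf10*, at 0.45, and *Dkk1* had *Mogat2* at 0.28, with 178 genes over 0.95 for *Frzb* and 173 for *Dkk1*. *Fgf10* had a signal of 9.49 in *Mst-/-* EBs and 9.20 in wild type EBs at day 8, and of 8.05 in *Mst-/-* EBs and 10.72 in wild type EBs at day 4. *Mogat2* had 10.47 in *Mst-/-* EBs and 9.99 in wild type EBs at day 8, and 9.22 in *Mst-/-* EBs and 11.11 in wild type EBs at day 4. For the others the closest genes were *Npr2* for *Sfrp1*, *Diras1* for *Sfrp2*, *Hkdc1* for *Sfrp5*, *Ltb* for *Sp5*, *Polr3gl* for *Nkd1* and *Sall3* for *Lef1*, at distances between 0.15 and 0.21.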
